A study of Mus musculus with 14 samples.

Results

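The response of the WT colon to dextran sulfate sodium (DSS) was measured by RNA-seq of bulk tissue in 7 of the 14 mice of the series. All 7 were C57BL/6N mice of the WT genotype, the wild-type controls of a line that lacks the microRNA cluster MiR-29ab1. WT mice without DSS numbered 4. The other 3 WT mice had been treated with DSS, which per the study's description was 3.5% for 3 days. The study's methods describe young adult littermates matched for age and sex and animals of both sexes, and the sex of the sequenced mice and any pooling of animals are not given in the sources used here. The genes compared were the protein-coding genes with the same gene length in both deposited count tables, 20589 of the 54378 genes that the tables share, and 12109 of them had enough reads to be tested.

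All mice without DSS sit in one table and all mice after DSS in the other, and the tables hold different sets of genes. DSS treatment and the table with its sequencing run are therefore confounded: a difference made by DSS and a difference made by the run or its processing cannot be told apart in any comparison of the 4 with the 3 mice. Every value given for DSS carries this limit.

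DSS is a sulfated polysaccharide given in drinking water. It injures the epithelium of the colon and the mucus above it and is used as a model of colitis. The colon epithelium is folded into crypts. Stem cells at the crypt base, marked by *Lgr5* and kept by Wnt signalling, divide and give rise to absorptive colonocytes, mucus-making goblet cells and the rarer enteroendocrine and tuft cells, which move up to the surface and are shed. After injury, surviving epithelial cells take on a repair state in which stem cell genes are low and genes such as *Clu*, *Ly6a* and *Areg* are high. Interferon gamma from lymphocytes acts on the same cells through JAK kinases and turns on genes that carry a DNA element known as GAS, while genes that type I interferons turn on often carry another element, ISRE.

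The promoters of *Irf1*, *Gbp2* and *Areg* are printed because these genes stand for such programmes in the results, the first pair for interferon gamma and *Areg* for repair. Each is the reference sequence of the 250 bases that precede the gene's start on the plus strand of GRCm38.p6, from RefSeq, 5′ to 3′, with the motif found in it in capitals. The *Irf1* window is chr11:53769764-53770013 and its capitals mark a GAS motif that begins 90 bases before the start. The *Gbp2* window is chr3:142620413-142620662, where the capitals mark an ISRE core read on the other strand, beginning 59 bases before the start. The gene positions deposited with the counts start *Gbp2* at 142620602, inside this window, and by them the motif lies within the gene. The *Areg* window is chr5:91139349-91139598 and its capitals mark a cyclic AMP response element (CRE), 61 bases before the start.
Irf1 promoter: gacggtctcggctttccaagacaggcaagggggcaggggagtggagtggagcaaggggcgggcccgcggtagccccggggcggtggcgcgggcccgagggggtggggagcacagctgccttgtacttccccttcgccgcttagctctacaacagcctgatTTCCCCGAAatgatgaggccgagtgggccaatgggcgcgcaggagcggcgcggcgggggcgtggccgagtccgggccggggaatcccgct
Gbp2 promoter: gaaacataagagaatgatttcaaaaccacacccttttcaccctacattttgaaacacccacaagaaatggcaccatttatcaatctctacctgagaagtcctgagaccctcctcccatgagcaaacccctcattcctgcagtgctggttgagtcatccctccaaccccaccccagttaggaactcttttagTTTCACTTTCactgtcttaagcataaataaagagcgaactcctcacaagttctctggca
Areg promoter: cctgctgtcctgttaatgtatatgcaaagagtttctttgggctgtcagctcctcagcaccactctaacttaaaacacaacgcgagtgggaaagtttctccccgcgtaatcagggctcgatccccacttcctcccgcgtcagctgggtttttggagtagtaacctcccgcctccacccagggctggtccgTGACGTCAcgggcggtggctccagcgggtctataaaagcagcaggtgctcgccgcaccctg

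The motifs were searched on both strands as CRE (TGACGTCA), GAS (TTCNNNGAA) and ISRE core (GAAA, any 2 bases, GAAA) in the same window of the 15935 genes that have a promoter entry. Over all of these, 2.05% held the CRE, 6.85% GAS and 3.11% the ISRE core. Of the genes listed for interferon gamma and JAK-STAT signalling, 9 of 30 held GAS and 9 of 30 the ISRE core. Of the genes listed for the interferon response, 4 of 23 held GAS and 10 of 23 the ISRE core. A CRE stood in 1 of 12 promoters of the repair list. AP-1 (TGANTCA), TCF (CTTTGAT) and CArG box motifs were searched too, and 6.38, 2.79 and 1.39% of all promoters held them. AP-1 stood in 0 of 18 immediate early, 6 of 23 interferon response, 3 of 30 interferon gamma and 3 of 12 repair promoters. TCF stood in 1 of 13 crypt stem and Wnt promoters and the CArG box in 2 of 18 immediate early promoters. The *Gbp2* promoter also holds an AP-1 match, which is not in capitals. These matches describe letters and say nothing of whether a factor binds there.

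The libraries without DSS held 17177177 to 18185020 reads and those after DSS 20506610 to 22990024, and 90.33 to 91.66% of them fell on the genes compared. The mitochondrial genome took 6.162 to 13.081% of the reads without DSS and 5.896 to 8.242% after DSS. Both groups separated along the first axis of a multidimensional scaling of the samples, which held 72.2% of the variance. GEO names the tissue as small intestinal crypts and the study describes colon. Genes that mark colon were high in both groups: *Car1*, a carbonic anhydrase of the colon surface, ran from 2517 to 4285 CPM, the reads of a gene per 1000000 reads after TMM scaling, without DSS and from 4471 to 6374 after it, and *Hoxb13*, a patterning gene of the hindgut, from 102 to 233 and 261 to 312 CPM. Of 19 listed genes of the small intestine, 7 had too few reads to pass the filter, and *Apoa1*, an apolipoprotein of enterocytes, and *Lyz1*, a Paneth cell lysozyme, were near 0 at 0 to 0.849 and 0.103 to 2.11 CPM and 0.56 to 1.89 and 0.206 to 1.46 CPM. Others on that list were expressed, with *Fabp2* at 161 to 282 and 284 to 497 CPM and *Slc5a1* at 167 to 205 and 184 to 213 CPM, and the list summed to 474 to 594 and 701 to 931 CPM. Smooth muscle genes summed to 59.3 to 68.5 and 60.5 to 81.7 CPM, and the 3 tested members held 58.4 to 67.7 and 60.2 to 81.1 CPM of this. The other 6 had few reads over the mice without and after DSS. These were *Myh11* (8 and 5), *Des* (20 and 6), *Cnn1* (8 and 2), *Actg2* (9 and 5), *Myl9* (10 and 5) and *Lmod1* (0 and 1). Whether whole colon or isolated crypts were sequenced was not tested. In bulk tissue, fewer cells of a type and less RNA per cell cannot be told apart.

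The 2 tables did not count all genes alike. The table without DSS lists 114 transcripts on 39 alternative sequences of the genome assembly, and the table after DSS lists 0. Of those sequences, 34 could be given a chromosome and 5 could not, so genes near the 5 could not be marked by position. Within 150 kb of the 34, or read in 1 table only in the mutant mice, lay 236 of the genes compared, called marked genes here. Of the 168 marked genes that were tested, 111 were called higher and 12 lower after DSS, and they made up 80 of the 124 genes with a log2 fold change of at least 3. The 12 largest rises that met the naming rule were all marked: *Cdc42bpg*, *Ndufs3*, *Arf4*, *Ehd1*, *Psme2b*, *Fam91a1*, *AA467197*, *Fbxo32*, *Lats1*, *Mpv17l2*, *Sf1* and *Celf1*. *Fam91a1*, for example, had 0 reads over the 4 mice without DSS and 6147 over the 3 after DSS. *Muc2*, the main gel-forming mucin of the colon, was marked as well. Its level was 96.7, 100.3, 169.9 and 23.3 CPM without DSS and 7208, 9756 and 9854 CPM after it, or 6676 against 497808 reads. How many of these reads were set by the counting of the tables was not tested, and the counts of lists that hold called marked genes are also given without them. Another 17 tested genes lay in runs of neighbours that all rose together, and 270 overlapped a gene listed in 1 table only, of which 45 were called higher and 86 lower.

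**Figure D1:**
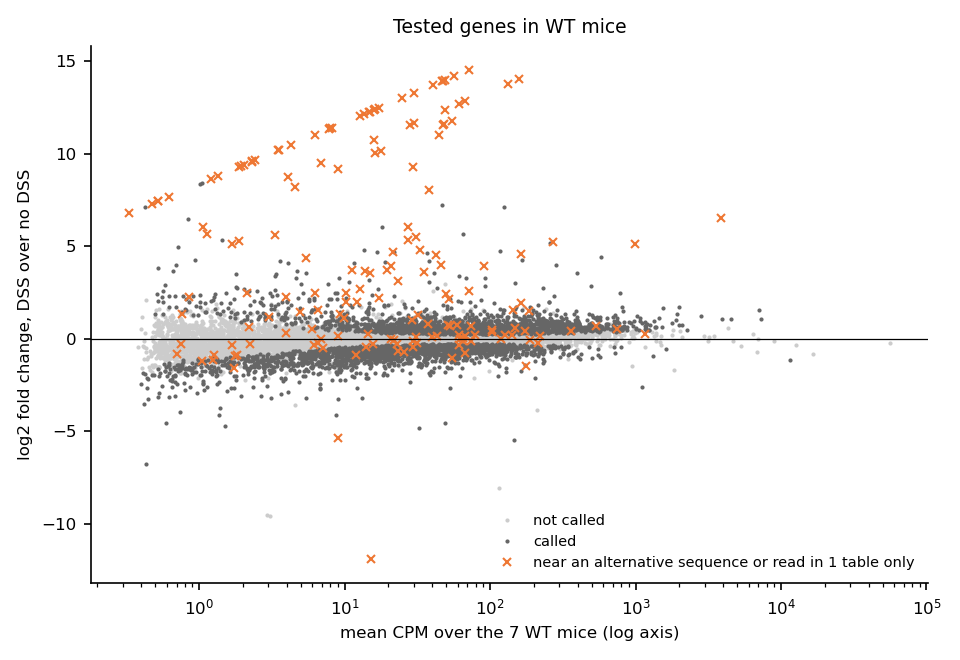
Log2 fold change of each tested gene, DSS over no DSS (vertical axis), against its mean CPM over the 7 WT mice (horizontal log axis). Grey points were not called, dark points were called, and crosses are the marked genes. Of the 124 points at 3 or above on the vertical axis, 80 are crosses.

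After DSS, 2208 of the 12109 genes were higher (18.2%) and 2108 lower (17.4%) at an adjusted p under 0.05 in edgeR's quasi-likelihood test. At least 2-fold higher were 488 genes (4.03%), and at least 2-fold lower 608 (5.02%). The split between directions depended on the scaling. Higher genes were 51.2% of the calls with TMM size factors, 52.3% with RLE, 40.5% with upper quartile scaling and 20.7% when size factors came from 24 reference genes, which moved the median log2 fold change of all genes from -0.02 to -0.29. Of those reference genes, used elsewhere as steady standards, 10 were called higher and 1 lower with TMM, a count that itself rests on TMM. Which scaling lies closer to the amounts in the tissue was not tested. The direction of a list is given as it stands with TMM, and where the other scaling turns it this is said. Size factors from reference genes called 7.88% of all tested genes higher and 30.2% lower. List counts given for that scaling stand beside these shares. Length offsets called 17.1% of all tested genes higher and 13.6% lower. With a mouse left out, 11.9 to 18.1% were higher and 11.3 to 16.9% lower, the lowest without mouse 3 after DSS. List counts given for length offsets or with a mouse left out are to be read beside these shares.

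Gene length went with the direction of the calls. Among the shortest quintile of the tested genes, 34.4% were called higher and 5.82% lower. Among the longest quintile, 7.1% were called higher and 34.4% lower, and the median log2 fold change went from 0.29 to -0.26. Genes called higher had a median length of 3026 bases and genes called lower 6402.5, against 4389 over all tested genes. Whether RNA quality, library preparation or counting set this trend was not tested. The median by quintiles of transcript GC content stayed between -0.05 and 0.01. Lists were therefore also fitted with length as an offset, and that count is given where it differs for a list described.

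**Figure D2:**
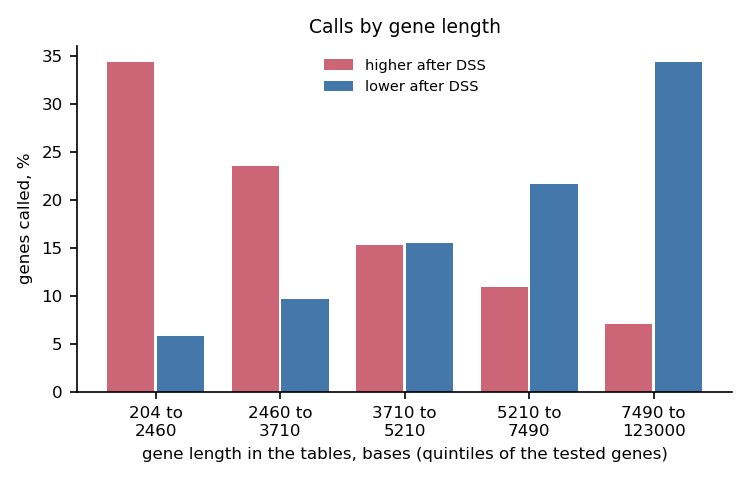
Percentage of tested genes called higher (red) or lower (blue) after DSS (vertical axis), by quintiles of gene length in bases (horizontal axis). The share called higher falls from 34.4% to 7.1% and the share called lower rises from 5.82% to 34.4% from the shortest to the longest quintile.

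Immediate early genes, which cells switch on within minutes of a stimulus and which include the AP-1 factors, had the highest median change of the lists, 1.97 against -0.02 over all tested genes. Of 21 tested members, 14 were higher and 2 lower. Without the marked genes *Jund* and *Egr2*, 12 of 19 were higher and 2 lower, with a median of 1.73. With length offsets 15 rose, and without any 1 mouse the count of rises stayed at 14 or 15. *Fos*, an AP-1 subunit (ENSMUSG00000021250, chr12:85473890-85477273 in GRCm38), stood at 68.4, 53.5, 55.6 and 55.4 CPM in the 4 mice without DSS and at 1846, 1051 and 922 CPM in the 3 after DSS (log2 fold change 4.45, SE 0.25, adjusted p = 2.7e-06). The 4 mice without DSS lay close together and every mouse after DSS was far above them.

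The AP-1 genes *Jun*, *Fosb* and *Junb* went the same way. *Jun* was at 70.8, 54.7, 72.1 and 80.6 CPM without DSS and 1263, 674 and 558 CPM after DSS (log2 fold change 3.58, SE 0.29, adjusted p = 9.2e-05). *Fosb*, barely detected without DSS at 1.47, 1.56, 3.96 and 1.35 CPM, reached 540.0, 207 and 116 CPM (log2 fold change 7.10, SE 0.73, adjusted p = 0.0011). *Junb* rose as well (log2 fold change 1.97, SE 0.21, adjusted p = 0.00032), and for *Jun*, *Fosb* and *Junb* the groups did not overlap. *Jund*, a marked gene, is not read.

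Stimulus-induced transcription factors outside AP-1 also rose. *Egr1*, a zinc finger factor, was at 14.4, 10.5, 29.2 and 10.8 CPM and then 737, 611 and 409 CPM (log2 fold change 5.17, SE 0.44, adjusted p = 0.00032). *Atf3*, a stress-induced repressor, was at 5.94, 12.3, 10.7 and 10.2 CPM and 435, 223 and 119.9 CPM (log2 fold change 4.73, SE 0.50, adjusted p = 0.0011). In both, mouse 1 after DSS was highest and mouse 3 lowest. *Klf6* averaged 157 ± 16.3 CPM (SD, n = 4) and 467 ± 131 CPM (SD, n = 3; log2 fold change 1.58, SE 0.18, adjusted p = 0.00031). *Zfp36*, which codes for a protein that destabilises cytokine mRNAs, was at 78.1, 63.2, 55 and 73.2 CPM and 668, 406 and 278 CPM (log2 fold change 2.74, SE 0.28, adjusted p = 0.0004). The genes that went the other way, named after their values were seen, were *Nr4a2*, an orphan nuclear receptor (log2 fold change -1.39, SE 0.31, adjusted p = 0.0076, and 0.056 with all 14 mice in one model), and *Myc*, a growth factor-induced and Wnt-induced regulator (log2 fold change -0.54, SE 0.13, adjusted p = 0.012). *Nr4a1*, *Ier5*, *Fosl2*, which codes for another AP-1 subunit, and *Egr3* were not called, with log2 fold changes of 1.08, 0.32, 0.18 and -0.03.

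Over the 19 immediate early genes that were not marked, the summed level was 973, 861, 855 and 959 CPM in the mice without DSS and 7866, 4771 and 3697 CPM in those after DSS. Mouse 1 after DSS was the highest of the 3 in 15 of the 19 genes and mouse 3 the lowest in 13. Immediate early genes also respond to handling and dissociation of tissue, and the time from death to RNA extraction is not given in the sources used here. The part of handling in these values was not tested.

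**Figure D3:**
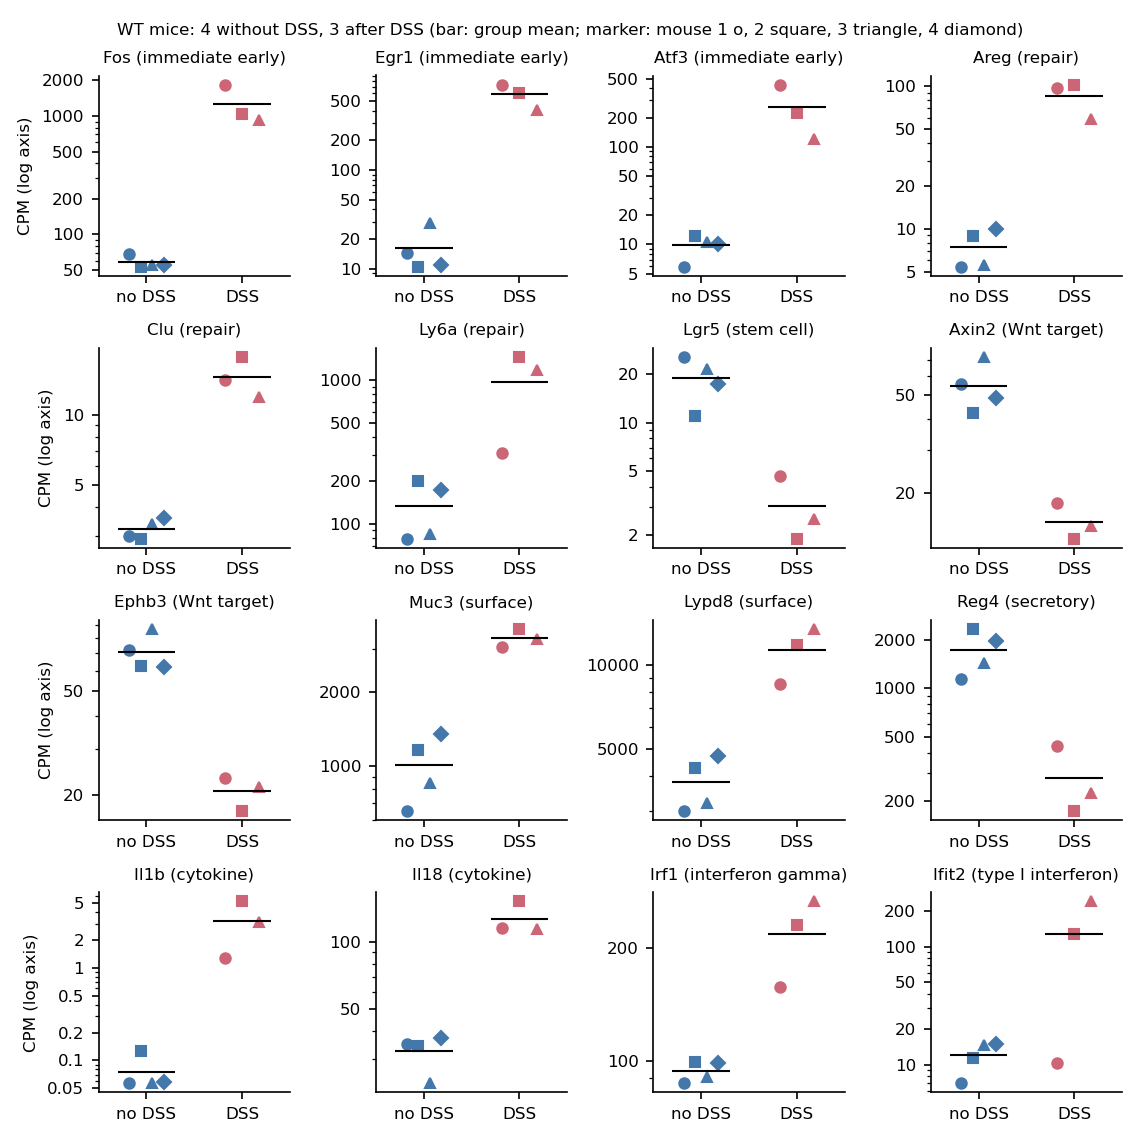
CPM of 16 genes in each WT mouse (vertical log axes), 4 mice without DSS in blue and 3 after DSS in red, with a bar at the group mean and a marker shape for each mouse number. Groups are apart in 15 of the panels; in *Ifit2*, mouse 1 after DSS lies among the mice without DSS.

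Genes of the crypt stem cell and of Wnt signalling fell. Of 20 tested members, 13 were lower and 2 higher, with a median of -1.05, and the same counts stood with length offsets. Without any 1 mouse, 11 to 14 were lower, and with size factors from reference genes 14 were. *Lgr5* (ENSMUSG00000020140, chr10:115450311-115587780), the receptor for R-spondins that marks crypt base stem cells, was at 25.7, 11, 21.6 and 17.5 CPM without DSS and 4.64, 1.9 and 2.52 CPM after it (log2 fold change -2.64, SE 0.38, adjusted p = 0.0016). The highest mouse after DSS was below the lowest mouse without.

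Direct Wnt target genes fell too. *Axin2*, a feedback inhibitor of the pathway, was at 55.9, 42.4, 71.8 and 48.9 CPM and 18.2, 13 and 14.6 CPM (log2 fold change -1.84, SE 0.20, adjusted p = 0.00026). *Ephb3*, a receptor that positions cells along the crypt, was at 71.8, 62.5, 86.7 and 62.2 CPM and 23.2, 17.3 and 21.5 CPM (log2 fold change -1.78, SE 0.15, adjusted p = 5.5e-05). In neither did the groups overlap. *Ascl2*, the transcription factor of the *Lgr5* cell, fell too (log2 fold change -1.42, SE 0.32, adjusted p = 0.008, and 0.056 with all 14 mice in one model), as did *Znrf3*, a ligase that removes Wnt receptors (log2 fold change -1.10, SE 0.18, adjusted p = 0.0018), *Lrig1*, a growth factor receptor inhibitor of stem cells (log2 fold change -1.0, SE 0.10, adjusted p = 0.00014), and *Tnfrsf19*, another Wnt target (log2 fold change -1.70, SE 0.38, adjusted p = 0.0081).

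*Ephb2*, *Ccnd1*, *Sp5* and *Olfm4* were not called. *Ephb2* was at 159, 130.1, 139 and 109 CPM and 106, 122 and 102 CPM (-0.29, adjusted p = 0.11), and its groups overlapped. *Olfm4*, which marks stem cells of the small intestine more than those of the mouse colon, ran from 0.283 to 1.32 and 0.206 to 0.568 CPM. The 2 members that rose, named after their values were seen, were *Lgr4*, the R-spondin receptor found along the whole crypt (209.7, 159.7, 141 and 177 CPM and 242, 303 and 235 CPM; log2 fold change 0.60, SE 0.15, adjusted p = 0.012, and 0.065 without mouse 2 after DSS, 0.19 with size factors from reference genes), and *Prom1* (log2 fold change 0.45, SE 0.12, adjusted p = 0.017, and 0.054 to 0.072 without mouse 2 or 3 after DSS, 0.26 with size factors from reference genes). Both lost the call with size factors from reference genes.

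Cell cycle genes moved less, and in 1 direction among the calls. Of 35 tested members, 15 were lower and 0 higher, with a median of -0.40, and 13 were lower with length offsets. Without mouse 3 after DSS, 8 were lower, where 11.3% of all tested genes were lower. With size factors from reference genes 26 were, where 30.2% of all tested genes were lower. *Mki67*, the gene of the proliferation antigen Ki-67, was at 219, 222, 220.3 and 162 CPM and 123, 157 and 140.0 CPM (log2 fold change -0.55, SE 0.14, adjusted p = 0.013, and 0.078 with length offsets). Mitotic genes with the smallest p were *Plk1*, a kinase (156 ± 21.8 CPM, SD, n = 4, and 85 ± 13.1 CPM, SD, n = 3; log2 fold change -0.88, SE 0.14, adjusted p = 0.0019), and *Cenpf*, a kinetochore protein (log2 fold change -0.83, SE 0.14, adjusted p = 0.0023). *Top2a*, the topoisomerase of dividing cells, was called while its groups overlapped (118 to 175 and 96.1 to 119 CPM; log2 fold change -0.54, SE 0.14, adjusted p = 0.016, and 0.053 to 0.064 without mouse 1 or 3 after DSS, 0.079 with length offsets). *Cdc20*, *Tpx2*, *Mcm3* and *E2f1* were not called, with log2 fold changes of -0.28, -0.36, -0.40 and -0.62.

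Genes of the repair state rose. Of 18 tested members of the regenerative epithelium list, 12 were higher and 1 lower, with a median of 1.18, and 10 to 13 were higher without any 1 mouse. With length offsets 11 were higher and 0 lower. *Clu*, a secreted chaperone that marks revival stem cells, was at 3, 2.93, 3.39 and 3.59 CPM without DSS and 14.1, 17.7 and 11.9 CPM after it (log2 fold change 2.18, SE 0.19, adjusted p = 6.4e-05). Its 4 values without DSS were nearly equal and all 3 values after DSS were higher.

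*Areg*, a ligand of the epidermal growth factor receptor whose promoter is printed above, was at 5.43, 8.84, 5.57 and 9.94 CPM and 96.8, 103 and 59.2 CPM (log2 fold change 3.54, SE 0.27, adjusted p = 9.7e-05). Its neighbour *Ereg*, a ligand of the same receptor, rose as well (log2 fold change 2.32, SE 0.52, adjusted p = 0.0086). Both lie in a run of neighbours that rose together, and counting differences between the tables were not tested for them. *Ly6a*, which codes for the surface antigen Sca-1 and has close copies among which reads can be split, was at 78.7, 199, 84.7 and 173 CPM and 309, 1449 and 1167 CPM (log2 fold change 2.87, SE 0.60, adjusted p = 0.012). Mouse 1 after DSS was the lowest of its group but above every mouse without DSS.

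Other repair genes changed by less. *Tnfrsf12a*, the receptor for TWEAK (log2 fold change 1.43, SE 0.18, adjusted p = 0.0006), *Anxa2*, a membrane-binding protein (log2 fold change 1.20, SE 0.23, adjusted p = 0.0044), *Plaur*, the urokinase receptor (log2 fold change 0.99, SE 0.20, adjusted p = 0.0052), and the keratin gene *Krt7* (log2 fold change 0.87, SE 0.13, adjusted p = 0.0014) rose as well. *Itga2*, an integrin chain, was the member that fell (log2 fold change -0.42, SE 0.15, adjusted p = 0.049, and 0.076 to 0.15 without mouse 1, 2 or 3 after DSS or mouse 1 or 3 without DSS, 0.18 with length offsets, 0.053 with RLE size factors, 0.08 with GC offsets, 0.062 with all genes of both tables, 0.051 without marked genes), named after its value was seen. *Anxa8*, *Il33* and *Krt23* were not called.

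Genes of the differentiated colon surface were higher after DSS. Of 22 tested members of the surface colonocyte list, 14 rose and 0 fell, with a median of 0.85. With length offsets 12 rose and 1 fell. Without mouse 3 after DSS 9 rose, where 11.9% of all tested genes did. *Muc3*, a membrane mucin, was at 651, 1157, 851 and 1351 CPM and 3078, 3630.1 and 3320.1 CPM (log2 fold change 1.74, SE 0.24, adjusted p = 0.00077). *Lypd8*, a secreted protein that keeps flagellated bacteria off the epithelium, was at 2987, 4277, 3206 and 4725 CPM and 8587, 11878 and 13512 CPM (log2 fold change 1.58, SE 0.24, adjusted p = 0.0013) and was among the 10 genes with the highest level per gene length after DSS, at 8821 CPM per kb against 2959 without. In both the groups did not overlap. *Plac8* (log2 fold change 1.72, SE 0.27, adjusted p = 0.0021), the brush border protein gene *Cdhr5* (log2 fold change 0.93, SE 0.14, adjusted p = 0.0013), the differentiation factor *Klf4* (log2 fold change 0.70, SE 0.14, adjusted p = 0.005) and *Cdh17* (log2 fold change 0.82, SE 0.17, adjusted p = 0.0057) rose too. Mouse 1 after DSS was the lowest of the 3 in 18 of the 22 genes. *Hnf4g*, a nuclear receptor of absorptive cells, was below every mouse without DSS but not called (-0.35, adjusted p = 0.053), and *Cdx1* (0.33, adjusted p = 0.068) and *Emp1* (0.88, adjusted p = 0.13) were above them and not called.

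Transport genes went in both directions. Of 23 tested members, 7 were higher and 2 lower, and with length offsets 6 and 3. The share higher was above the 18.2% of all tested genes and the share lower below the 17.4%. The median was 0.14, which became -0.11 with size factors from reference genes. *Slc16a1*, the transporter of butyrate and lactate, was at 311, 293, 278 and 313 CPM and 573, 553 and 524 CPM (log2 fold change 0.88, SE 0.10, adjusted p = 0.00039). Among the genes that rose were also *Car4*, a carbonic anhydrase (log2 fold change 1.11, SE 0.22, adjusted p = 0.0055), *Guca2a*, the gene of the hormone guanylin (log2 fold change 0.87, SE 0.17, adjusted p = 0.0042, and 0.16 with length offsets), and *Slc6a14*, an amino acid transporter (log2 fold change 0.95, SE 0.18, adjusted p = 0.0034). The genes that fell were *Kcnma1*, a potassium channel of the crypt (28.8, 24.7, 25.4 and 24.4 CPM and 8.56, 8.13 and 11.3 CPM; log2 fold change -1.47, SE 0.15, adjusted p = 0.00015), and *Cftr*, the chloride channel (228, 164, 213 and 199 CPM and 127, 129.5 and 119.6 CPM; log2 fold change -0.68, SE 0.12, adjusted p = 0.0031). In both the groups did not overlap. *Slc26a3*, the chloride and bicarbonate exchanger of the surface, was above every mouse without DSS and was not called (259.6, 404, 275 and 536 CPM and 571, 556 and 602 CPM; 0.65, adjusted p = 0.059).

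Junction genes rose in 13 of 23 tested members and fell in 1, with a median of 0.42 and the same counts with length offsets. With size factors from reference genes, 8 rose and 1 fell. *Cldn4*, a barrier-sealing claudin, was at 25.9, 16.7, 29 and 18.8 CPM and 49.5, 46 and 71.1 CPM (log2 fold change 1.3, SE 0.22, adjusted p = 0.0029). *Cldn3* (log2 fold change 0.78, SE 0.13, adjusted p = 0.0023), *Cldn23* (log2 fold change 0.94, SE 0.13, adjusted p = 0.00083) and *F11r*, a junctional adhesion molecule (log2 fold change 0.77, SE 0.12, adjusted p = 0.0017), rose as well. *Cldn15*, a pore-forming claudin that lets cations through, was the member that fell (245, 275, 278 and 267 CPM and 163, 145 and 162 CPM; log2 fold change -0.77, SE 0.10, adjusted p = 0.00071). *Cdh1*, the gene of E-cadherin and named by the study, rose (log2 fold change 0.50, SE 0.13, adjusted p = 0.014, and 0.15 with size factors from reference genes), while *Ocln* (0.21, adjusted p = 0.12) and *Tjp1* (0.16, adjusted p = 0.36), which code for core proteins of tight junctions and which the study names, were not called.

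Goblet cell genes were split between the secretory programme and 2 of its products. Of 20 tested members, 8 were lower and 3 higher, and 1 of the 3 was the marked gene *Muc2*. The median was -0.84. Lower genes numbered 11 with length offsets, 13 with size factors from reference genes, 3 without mouse 2 after DSS and up to 12 without another mouse. *Atoh1*, the factor that commits cells to the secretory lineage, was at 145, 139.9, 163 and 145 CPM and 82.1, 81.9 and 84.4 CPM (log2 fold change -0.84, SE 0.09, adjusted p = 0.00027). Each group was tight and they did not overlap.

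The goblet cell factors *Spdef* (log2 fold change -0.88, SE 0.21, adjusted p = 0.013, and 0.051 without mouse 2 after DSS) and *Creb3l1* (log2 fold change -0.85, SE 0.13, adjusted p = 0.0016) fell as well. *Reg4*, a lectin of deep crypt secretory cells, was at 1149, 2328, 1439.6 and 1966 CPM and 441, 174 and 225 CPM (log2 fold change -2.62, SE 0.39, adjusted p = 0.002). *Fcgbp*, a mucus-binding protein, was at 9782, 22956, 14309 and 13170.3 CPM and 6064, 5998 and 8434 CPM (log2 fold change -1.14, SE 0.30, adjusted p = 0.016, and 0.052 without mouse 2 after DSS). The secreted products that rose were *Zg16*, a lectin that aggregates Gram-positive bacteria (1563, 1981, 1537 and 2016 CPM and 2929, 4947 and 4848 CPM; log2 fold change 1.26, SE 0.21, adjusted p = 0.0023), and *Tff3*, a trefoil factor (log2 fold change 0.99, SE 0.18, adjusted p = 0.0028). *Clca1* (-0.84, adjusted p = 0.12), *Ang4* (-1.68, adjusted p = 0.11), *Retnlb* (-1.45, adjusted p = 0.097) and *Capn9* (-0.64, adjusted p = 0.11) overlapped between the groups and were not called.

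Enteroendocrine genes were called higher in 3 and lower in 5 of 23 tested members, shares near the 18.2% and 17.4% of all tested genes. The counts with length offsets were 1 and 6, and without mouse 2 after DSS 1 was lower. *Pyy*, the gene of peptide YY, was at 35.4, 38.7, 26.3 and 39 CPM and 73.8, 68.2 and 88.1 CPM (log2 fold change 1.14, SE 0.15, adjusted p = 0.00067), and *Insl5*, another hormone of colon L cells, rose (log2 fold change 0.96, SE 0.19, adjusted p = 0.0055, and 0.072 with length offsets, 0.06 with all 14 mice in one model). The progenitor factor *Neurog3* was at 2.26, 1.25, 1.43 and 3.18 CPM and 0.671, 0.309 and 0.117 CPM (log2 fold change -2.43, SE 0.57, adjusted p = 0.0097). Its last value lay below the floor of 3 reads. *Insm1*, an early endocrine factor (log2 fold change -1.30, SE 0.34, adjusted p = 0.016, and 0.052 without mouse 2 after DSS), and *Pcsk1*, a prohormone convertase (log2 fold change -0.84, SE 0.21, adjusted p = 0.013, and 0.053 without mouse 2 after DSS), fell too. Of 15 tested tuft cell genes, 0 were higher and 2 lower, *Hpgds* (log2 fold change -0.78, SE 0.23, adjusted p = 0.022, and 0.053 to 0.085 without mouse 1 or 2 after DSS or mouse 3 without DSS, 0.052 with length offsets) and *Plcb2* (log2 fold change -0.96, SE 0.29, adjusted p = 0.026, and 0.074 to 0.081 without mouse 2 after DSS or mouse 3 without DSS, 0.052 with length offsets), and 5 were lower when mouse 1 without DSS was left out and 0 when mouse 3 without DSS or mouse 2 after DSS was. With length offsets 0 tuft cell genes were called, and *Dclk1* (-0.53, adjusted p = 0.12) and *Pou2f3* (-0.82, adjusted p = 0.1), which define the cell type, were not called.

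**Figure D4:**
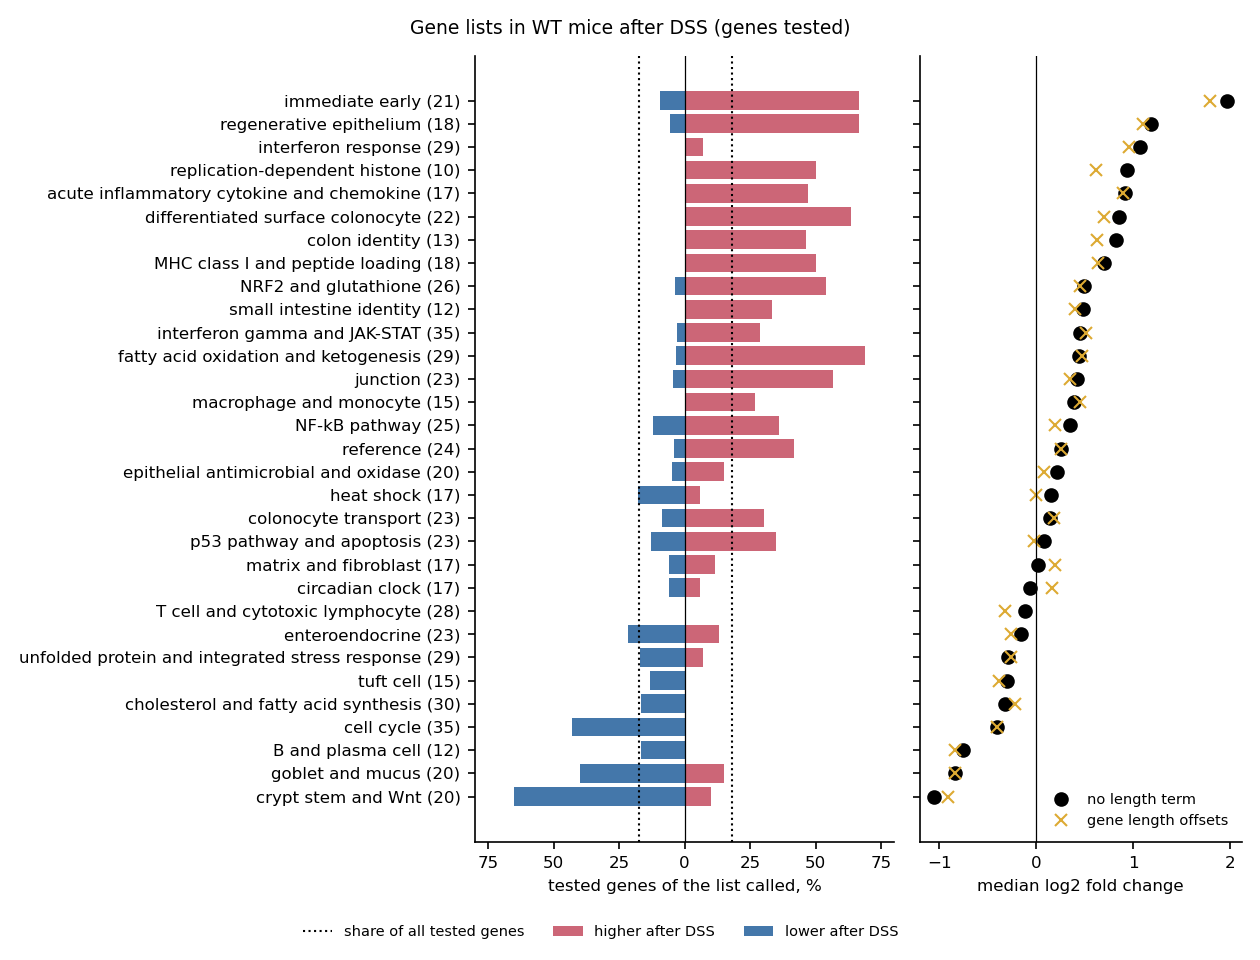
For each gene list with at least 10 tested genes (their number in brackets), mitochondrially encoded and study-named genes aside, the percentage of tested genes called higher (red, to the right) or lower (blue, to the left) after DSS, with dotted lines at the 18.2% and 17.4% of all tested genes, and on the right the median log2 fold change without a length term (dots) and with length offsets (crosses). Immediate early genes stand at the top with a median of 1.97 and crypt stem and Wnt genes at the bottom with -1.05.

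Among epithelial defence genes, few members were called. Of 20 tested, 3 were higher and 1 lower, or 3 and 2 with length offsets, neither share above that of all tested genes, and the median of 0.22 became -0.01 with size factors from reference genes. *Reg3b*, a bactericidal lectin, was at 31.5, 17.2, 10.4 and 95.7 CPM and 204, 1224 and 403 CPM (log2 fold change 3.98, SE 0.99, adjusted p = 0.025, and 0.055 to 0.09 without mouse 2 or 3 after DSS or mouse 1 or 2 without DSS, 0.05 without the filter on low counts). Its close relative *Reg3g* rose as well (log2 fold change 3.29, SE 0.73, adjusted p = 0.017, and 0.057 without mouse 1 without DSS), and both spread widely in each group. Without mouse 1 without DSS, 1 member was called higher. *Wfdc2*, a protease inhibitor, rose (log2 fold change 1.14, SE 0.19, adjusted p = 0.0022). *Nox1*, the oxidase of the colon epithelium, fell from 62.2, 89.1, 68.7 and 61.6 CPM to 26.1, 25.3 and 21.7 CPM (log2 fold change -1.53, SE 0.15, adjusted p = 0.00013). *Saa1* (0.91, adjusted p = 0.066) and *Ltf* (1.62, adjusted p = 0.1) were not called.

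Of the cytokine and chemokine list, 17 of 35 members passed the filter on low counts, and 8 of them rose and 0 fell, with a median of 0.92. Without any 1 mouse, 6 to 9 rose. *Il18*, a cytokine that epithelial cells store, was at 35.2, 34.3, 23.4 and 37.3 CPM and 116, 152 and 114 CPM (log2 fold change 1.97, SE 0.17, adjusted p = 6.1e-05). *Il1b*, an inflammasome-processed cytokine of myeloid cells, had 5 reads over the 4 mice without DSS and 181 over the 3 after DSS (1.29, 5.25 and 3.16 CPM after DSS; log2 fold change 5.33, SE 0.63, adjusted p = 0.00037). *Il1rn*, the receptor antagonist of the same pathway, was at 37.1, 44.9, 25.5 and 48.8 CPM and 147, 151 and 97.2 CPM (log2 fold change 1.75, SE 0.23, adjusted p = 0.0013). In all 3 the groups did not overlap.

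Chemokines that rose were *Cxcl16* (log2 fold change 2.20, SE 0.26, adjusted p = 0.00038), the interferon-induced *Cxcl9* (log2 fold change 1.82, SE 0.38, adjusted p = 0.006) and *Cxcl10* (log2 fold change 2.35, SE 0.50, adjusted p = 0.0071), and *Cxcl1*, which attracts neutrophils (log2 fold change 1.72, SE 0.43, adjusted p = 0.013, and 0.077 without mouse 2 after DSS). *Tnf* (0.74, adjusted p = 0.28) and *Ccl20* (0.75, adjusted p = 0.61) were not called. *Ifng*, the gene of interferon gamma itself, had 10 reads over the mice without DSS and 35 after DSS. *Il6* had 4 and 2 reads and *Il17a* 0 and 6. They failed the filter on low counts. Without the filter, the adjusted p in edgeR was 0.057 for *Ifng*, 0.77 for *Il6* and 0.12 for *Il17a*, and DESeq2 gave 0.053 for *Ifng*, so a difference was not shown at this depth. DESeq2 tested all 35 members and called 11, among them 3 that failed the filter and are named after their values were seen. These were *Cxcl2*, a chemokine for neutrophils (9 reads without and 61 after DSS, DESeq2 adjusted p = 0.0052), *Ccl7*, a chemokine for monocytes (0 and 45 reads, DESeq2 adjusted p = 0.00049), and *Ptgs2*, the inducible prostaglandin synthase (2 and 40 reads, DESeq2 adjusted p = 0.0047), and edgeR without the filter gave 0.015, 0.033 and 0.0073.

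Receptors and targets of interferon gamma rose in part. Of 35 tested members of the interferon gamma and JAK-STAT list, 10 were higher and 1 lower, with a median of 0.45, and 18 were higher without mouse 1 after DSS. One of the 10, *Irgm1*, was a marked gene, and without marked genes 9 of 33 were higher, with a median of 0.37. With length offsets 11 were higher and 0 lower. The receptor gene *Ifngr1* was at 146, 182, 159.8 and 188 CPM and 304, 298 and 308 CPM (log2 fold change 0.84, SE 0.11, adjusted p = 0.00075), and *Ifngr2*, the other chain, rose as well (log2 fold change 0.55, SE 0.10, adjusted p = 0.003, and 0.069 with size factors from reference genes). The transcription factor *Irf1* was at 87.3, 99.7, 90.8 and 99 CPM and 157, 229.9 and 266 CPM (log2 fold change 1.21, SE 0.16, adjusted p = 0.00075). All 3 mice after DSS were above the 4 without.

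*Gbp2*, a guanylate-binding protein of the interferon gamma response, was at 5.83, 11.4, 9.64 and 10.1 CPM and 20.6, 85.7 and 124 CPM (log2 fold change 3.05, SE 0.60, adjusted p = 0.01). Mouse 1 after DSS was far below the other 2. *Socs3*, a feedback inhibitor of STAT3 (log2 fold change 1.33, SE 0.20, adjusted p = 0.0015), and *Irf8* (log2 fold change 0.88, SE 0.15, adjusted p = 0.002) rose too. *Il6st*, the shared receptor chain of the interleukin 6 family, was the member that fell (log2 fold change -0.47, SE 0.14, adjusted p = 0.028, and 0.05 to 0.089 without mouse 1, 2 or 3 after DSS or mouse 2 or 3 without DSS, 0.25 with length offsets), named after its value was seen. *Stat3* (0.31, adjusted p = 0.05) and *Gbp5* (1.90, adjusted p = 0.064) were not called.

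Genes that load peptides on MHC class I were higher. Of 18 tested members, 9 rose and 0 fell, with a median of 0.70, and 8 rose with length offsets and 5 with size factors from reference genes. *B2m*, the light chain of MHC class I, was at 403, 486, 435 and 514 CPM and 668, 1455 and 1782 CPM (log2 fold change 1.5, SE 0.28, adjusted p = 0.0048). The proteasome genes *Psme1* (log2 fold change 1.10, SE 0.12, adjusted p = 0.0003), *Psme2* (log2 fold change 1.22, SE 0.14, adjusted p = 0.00038) and *Psmb10* (log2 fold change 1.24, SE 0.15, adjusted p = 0.0004) and the peptide transporter gene *Tap2* (log2 fold change 1.17, SE 0.28, adjusted p = 0.015, and 0.055 without mouse 2 after DSS) rose as well. *H2-D1* rose (log2 fold change 0.99, SE 0.28, adjusted p = 0.022, and 0.05 to 0.086 without mouse 2 or 3 after DSS or mouse 2 or 3 without DSS, 0.07 with size factors from reference genes), but MHC class I genes have near-identical copies and their reads are uncertain. Mouse 1 after DSS was the lowest of the 3 in 16 of the 18 genes. Most MHC class II genes had other lengths in the 2 tables and were not compared. Their regulator *Ciita* rose (4.13, 5.67, 5.97 and 4.29 CPM and 5.93, 12.3 and 18.8 CPM; log2 fold change 1.3, SE 0.34, adjusted p = 0.017, and 0.051 to 0.08 without mouse 2 or 3 after DSS) although the groups overlapped.

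The interferon response list, made of genes that type I interferons induce, split the 3 mice after DSS. Of 29 tested members 2 were called higher, *Ifit2* and *Ifit3b*, and 0 when mouse 2 or 3 after DSS or mouse 1, 2 or 3 without DSS was left out, while the median was 1.07. An unadjusted p under 0.05 was found in 11, and DESeq2 called 8. With length offsets 3 were higher and 1 lower. In mouse 1 after DSS, 0 of the 29 genes were above every mouse without DSS and 14 were below every one. In mouse 2, 24 were above every mouse without DSS, and in mouse 3, 25. Groups overlapped in all 29 genes. The same counts by mouse were not made over all tested genes, so no share stands beside them.

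*Ifit2*, which binds foreign RNA, was at 6.96, 11.4, 14.7 and 15 CPM and 10.4, 128 and 242 CPM (log2 fold change 3.40, SE 0.94, adjusted p = 0.035, and 0.068 to 0.11 without mouse 2 or 3 after DSS or mouse 1, 2, 3 or 4 without DSS, 0.068 without the filter on low counts). *Irf7*, the amplifier of the type I response, was at 141, 155, 191 and 155 CPM and 141, 425 and 693 CPM (1.39, adjusted p = 0.058). *Zbp1*, a nucleic acid sensor, was at 31.1, 67.1, 48 and 50.3 CPM and 45.6, 181 and 201 CPM (1.54, adjusted p = 0.06). In each, mouse 1 after DSS lay within or below the range of the mice without DSS and the other 2 lay above it. The summed level of the list was 1019, 1495, 1527 and 1411 CPM in the mice without DSS, and 1010.3 CPM in mouse 1, 2823 CPM in mouse 2 and 4176 CPM in mouse 3 after DSS. With mouse 1 left out, 22 members were called higher, against 1870 of 12360 genes (15.1%). The order of the 3 mice was the reverse of that for the immediate early genes.

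**Figure D5:**
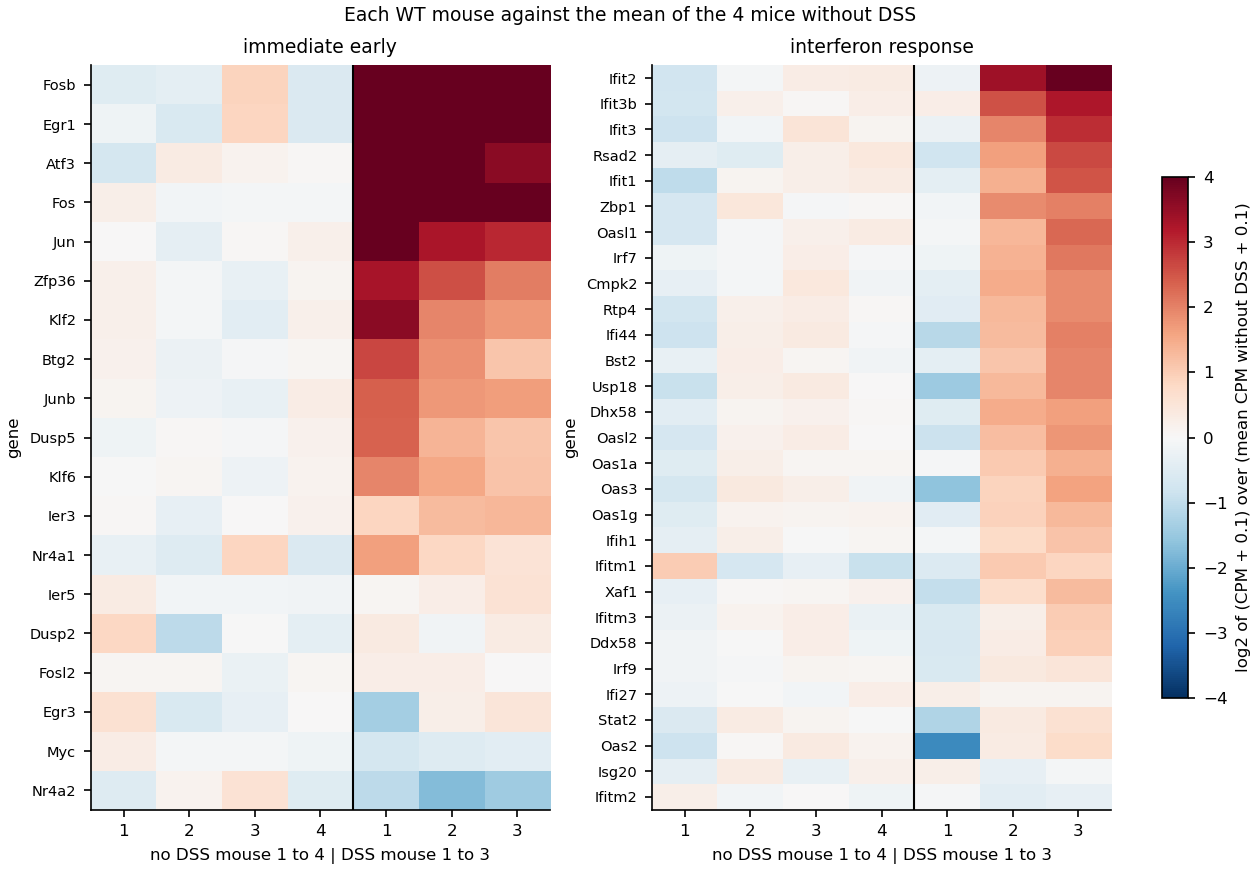
Each WT mouse against the mean of the 4 mice without DSS, as log2 of (CPM + 0.1) over (mean CPM + 0.1), for the immediate early genes (left) and the interferon response genes (right) that were not marked. Rows are genes, columns are mouse 1 to 4 without DSS and mouse 1 to 3 after DSS, and red is higher. Immediate early genes are most red in mouse 1 after DSS, and interferon response genes are red in mice 2 and 3 only.

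Genes that burn fatty acids rose together. Of 29 tested members of the fatty acid oxidation and ketogenesis list, 20 were higher and 1 lower, with a median of 0.44. Without the marked genes *Hadh* and *Slc25a20*, 18 of 27 were higher. Over the whole list, 18 were higher and 2 lower with length offsets. Without any 1 mouse, 15 to 19 were higher, and with size factors from reference genes 7 were. *Hadha*, a subunit of the mitochondrial trifunctional protein, was at 309, 294, 349 and 297 CPM and 573, 518 and 534 CPM (log2 fold change 0.80, SE 0.11, adjusted p = 0.0009). *Acadl*, a long-chain dehydrogenase (log2 fold change 0.89, SE 0.11, adjusted p = 0.00041), *Decr1* (log2 fold change 0.87, SE 0.10, adjusted p = 0.00026), *Hadhb* (log2 fold change 0.71, SE 0.10, adjusted p = 0.0012) and *Cpt2*, which releases acyl groups inside mitochondria (log2 fold change 0.76, SE 0.14, adjusted p = 0.0032), rose as well. *Acsl1*, which activates long-chain fatty acids, was the member that fell (53, 49.3, 43.7 and 48.2 CPM and 24.7, 25.2 and 23.8 CPM; log2 fold change -0.98, SE 0.10, adjusted p = 0.00018).

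Antioxidant genes of the NRF2 and glutathione list were higher in 14 and lower in 1 of 26 tested members, with a median of 0.49 and 14 higher and 0 lower with length offsets. With size factors from reference genes, 7 were higher. *Gpx1*, a glutathione peroxidase, was at 228, 301, 241 and 325 CPM and 523, 586 and 569 CPM (log2 fold change 1.03, SE 0.14, adjusted p = 0.00088). *G6pdx*, which supplies NADPH (log2 fold change 0.80, SE 0.10, adjusted p = 0.00057), *Srxn1* (log2 fold change 0.93, SE 0.16, adjusted p = 0.0023) and *Prdx1* (log2 fold change 0.69, SE 0.14, adjusted p = 0.0052) rose too. The member that fell, named after its value was seen, was *Slc7a11*, the cystine importer (log2 fold change -1.74, SE 0.48, adjusted p = 0.021, and 0.056 to 0.076 without mouse 1, 2 or 3 after DSS, 0.056 with length offsets). *Nqo1* (0.39, adjusted p = 0.11) and *Hmox1* (0.38, adjusted p = 0.35) were not called. Cholesterol and fatty acid synthesis genes were called lower in 5 and higher in 0 of 30 tested members, which is near the 17.4% lower of all tested genes, among them *Srebf1*, a master regulator (log2 fold change -0.69, SE 0.14, adjusted p = 0.0044), and *Fasn*, the fatty acid synthase (log2 fold change -0.68, SE 0.20, adjusted p = 0.027, and 0.072 to 0.095 without mouse 1 or 3 after DSS, 0.15 with length offsets). Without mouse 3 after DSS, 1 was lower, and with length offsets 2 were lower and 1 higher. With size factors from reference genes 12 were lower, where 30.2% of all tested genes were.

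Signalling and stress lists had members in both directions. Of 25 tested NF-kB pathway genes, 9 were higher and 3 lower, and with length offsets 7 and 1. The share higher was above the 18.2% of all tested genes and the share lower below the 17.4%. Without mouse 3 after DSS the counts were 4 and 1, where 11.9% and 11.3% of all tested genes were called. With size factors from reference genes, 2 were higher and 6 lower, near or below the 7.88% and 30.2% of all tested genes with that scaling. The receptors *Tlr1* (log2 fold change 0.73, SE 0.12, adjusted p = 0.0016) and *Tnfrsf1a* (log2 fold change 0.57, SE 0.11, adjusted p = 0.0037) and the inhibitor *Nfkbia* (log2 fold change 0.47, SE 0.11, adjusted p = 0.011, and 0.058 without mouse 3 after DSS, 0.29 with length offsets, 0.38 with size factors from reference genes) rose, and the kinase gene *Irak1* fell (log2 fold change -0.44, SE 0.11, adjusted p = 0.013, and 0.051 without mouse 3 after DSS). The kinase gene *Ikbkb* was called lower (log2 fold change -0.40, SE 0.10, adjusted p = 0.014, and 0.84 with length offsets), but its log2 fold change was 0.03 with length offsets. Of 23 tested p53 and apoptosis genes, 8 were higher and 3 lower, or 2 lower with length offsets and 1 without mouse 2 after DSS. Here too the share higher was above that of all tested genes and the share lower below it. The median of 0.08 became -0.17 with size factors from reference genes. *Bid* (log2 fold change 1.00, SE 0.19, adjusted p = 0.0039), which promotes cell death, and *Mcl1* (log2 fold change 0.60, SE 0.12, adjusted p = 0.0052) and *Bcl2l1* (log2 fold change 0.69, SE 0.14, adjusted p = 0.0051), which oppose it, all rose. *Trp53* (-0.37, adjusted p = 0.12) and *Mdm2* (-0.26, adjusted p = 0.064) were not called.

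Of 29 tested genes of the unfolded protein and integrated stress responses, 2 were higher and 5 lower, the latter near the 17.4% of all tested genes. Without mouse 3 after DSS 2 were lower, and without mouse 2 without DSS 4 were higher. With size factors from reference genes 13 were lower, where 30.2% of all tested genes were. The 2 members that rose with TMM were *Ppp1r15a*, a phosphatase subunit that restores translation (log2 fold change 1.84, SE 0.21, adjusted p = 0.00032), and *Atf3*, which is on the immediate early list too. *Ern2*, the stress sensor of mucus-making cells, fell from 232, 242, 289 and 186 CPM to 87, 91.5 and 87.1 CPM (log2 fold change -1.42, SE 0.14, adjusted p = 0.00015), with no overlap. *Xbp1* (-0.31, adjusted p = 0.079) and *Herpud1* (-0.36, adjusted p = 0.069) were not called. Of 17 heat shock genes, 1 was higher, *Dnajb1* (45.5, 54.4, 59.1 and 46.9 CPM and 182, 108 and 102 CPM; log2 fold change 1.35, SE 0.20, adjusted p = 0.0017), and 3 were lower, which became 1 with length offsets and 0 without mouse 3 after DSS. The share higher was below the 18.2% of all tested genes and the share lower near the 17.4%. The list's median of 0.15 became -0.11 with size factors from reference genes. *Hspa8*, the constitutive chaperone, was high in mouse 1 after DSS alone (812, 1344, 1088 and 1164 CPM and 2756, 1068 and 1236 CPM) and not called. Mouse 1 was the highest of the 3 mice after DSS in 16 of the 17 heat shock genes.

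Called markers of other cell types in the tissue went in different directions. Of all tested genes, 18.2% were called higher and 17.4% lower. Neither share was exceeded in the T cell, B and plasma cell, mast cell, matrix and endothelial lists. Of 28 tested T cell genes, 0 were called in edgeR and 0 had an unadjusted p under 0.05, and DESeq2 called 0 of 32, and their summed level over the whole list ran from 168 to 641 CPM without DSS and 215 to 416 after DSS. *Cd8a* was at 57.6, 14.4, 27.1 and 15.8 CPM and 17.5, 14.4 and 25.7 CPM (-0.58, adjusted p = 0.43). Of 20 neutrophil genes, 5 passed the filter on low counts, and *Mpo* and *Elane* had 0 reads in every mouse. The one called gene was *Ly6g* (6.68, 20.9, 6.03 and 16.6 CPM and 55.4, 114 and 80.7 CPM; log2 fold change 2.73, SE 0.50, adjusted p = 0.0077), while *S100a8* (1.12, adjusted p = 0.39) and *S100a9* (1.66, adjusted p = 0.2) were not called. The summed level of the list, mostly *Ly6g*, was 10.7 to 24.2 CPM without DSS and 58.9 to 126 after DSS, and *Ly6g* has close copies among which reads can be split.

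Of 15 tested macrophage and monocyte genes, 1 of them marked and not called, 4 were higher and 0 lower, and 2 were higher without mouse 2 or without mouse 3 after DSS. *Ctss*, a cathepsin that epithelial cells also express, made up most of the summed level of 190 to 219 CPM without DSS and 406 to 610.5 after DSS (108, 138, 118 and 169 CPM and 324, 368 and 418 CPM; log2 fold change 1.48, SE 0.16, adjusted p = 0.00024). The complement genes *C1qb* (log2 fold change 2.75, SE 0.61, adjusted p = 0.0078) and *C1qc* (log2 fold change 2.40, SE 0.62, adjusted p = 0.014, and 0.051 to 0.055 without mouse 2 or 3 after DSS) rose and *C1qa* did not (-0.41, adjusted p = 0.3). Of 12 tested B and plasma cell genes, 2 were lower, *Pax5* (log2 fold change -2.32, SE 0.71, adjusted p = 0.028, and 0.054 to 0.1 without mouse 1 or 2 after DSS or mouse 2 without DSS) and *Derl3* (log2 fold change -2.65, SE 0.84, adjusted p = 0.037, and 0.052 to 0.12 without mouse 1, 2 or 3 after DSS or mouse 2 or 4 without DSS), 5 were lower when mouse 3 after DSS was left out and 0 when mouse 1 or 2 after DSS or mouse 2 without DSS was, and the summed level was 24.1 to 35.4 and 10.8 to 35.9 CPM.

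*Kit*, a receptor of mast cells that deep crypt secretory cells of the colon also express, was the called member of the mast cell list and fell (227, 131, 222 and 139.8 CPM and 65.3, 56 and 58.4 CPM; log2 fold change -1.59, SE 0.22, adjusted p = 0.0011). The mast cell proteases *Mcpt1* (0.31, adjusted p = 0.71), *Mcpt2* (0.27, adjusted p = 0.77) and *Cma1* (0.07, adjusted p = 0.9) were not called. Of 17 tested matrix and fibroblast genes, *Sparc* (log2 fold change 1.85, SE 0.37, adjusted p = 0.005) and *Dcn* (log2 fold change 1.85, SE 0.42, adjusted p = 0.012) rose and *Fn1* fell (log2 fold change -3.19, SE 0.60, adjusted p = 0.0069), and the summed level was 61.8 to 122 CPM without DSS and 77.5 to 114 after it. Of 6 tested endothelial genes, *Vwf* fell (log2 fold change -1.45, SE 0.21, adjusted p = 0.001). Of 4 haemoglobin genes, near-identical in pairs, 3 were lower, with a median of -2.71, and 1 to 4 were when a mouse was left out. How far the makeup of the tissue entered the other lists was not tested.

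Among genes that were not marked, the largest rises by the naming rule were largely those described: *Fosb*, *Egr1*, *Atf3*, *Fos*, *Jun*, *Reg3b*, *Reg3g*, *Gbp2*, *Ly6a*, *Zfp36* and *Ly6g*. This second naming, without marked genes and genes in runs or overlaps, was added after the data were seen. *Tgm3*, a transglutaminase of the surface epithelium, was at 437, 237, 138 and 228 CPM and 1510.1, 1386 and 1522 CPM (log2 fold change 2.5, SE 0.34, adjusted p = 0.0013). *Upp1*, a uridine phosphorylase, was at 11.6, 34.4, 17 and 38.3 CPM and 67.7, 226 and 254 CPM (log2 fold change 2.85, SE 0.61, adjusted p = 0.015). *Aldh1a3*, which makes retinoic acid, was at 0.962, 1.43, 0.918 and 1.88 CPM and 8.56, 17.4 and 4.15 CPM (log2 fold change 2.95, SE 0.48, adjusted p = 0.0022). In *Tgm3* the 3 mice after DSS were nearly equal, whereas in *Upp1* and *Aldh1a3* they spread over several fold. *Pwwp2b* (log2 fold change 6.03, SE 0.41, adjusted p = 4.3e-05), *Intu* (log2 fold change 3.69, SE 0.41, adjusted p = 0.00027), *Cep170b* (log2 fold change 3.30, SE 0.24, adjusted p = 6.8e-05), *Nfya* (log2 fold change 3.19, SE 0.42, adjusted p = 0.0015), *Ly6c1* (log2 fold change 4.65, SE 1.12, adjusted p = 0.022, and 0.057 to 0.079 without mouse 2 or 3 after DSS or mouse 1 or 4 without DSS) and the endothelial and lymphocyte factor *Klf2* (log2 fold change 2.72, SE 0.49, adjusted p = 0.0061) completed this set. *Intu* spans the listed positions of an alternative sequence that was given no chromosome, and whether it was counted alike was not tested.

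Among the largest falls by the naming rule were *Med10*, *Pla2g4c*, *Trf*, *Tshz2*, *Fn1*, *Scn2b*, *Sox4*, *Lgr5*, *Aldh1l2*, *Reg4* and *Grpr*. *Med10*, a Mediator subunit, had 1817 reads over the mice without DSS and 0 after it and is marked, as is *Trf*. *Tshz2* and *Sox4* overlap a gene listed in 1 table only. *Pla2g4c*, a phospholipase, was at 23.5, 689, 59.9 and 236 CPM without DSS, a wide spread, and 8.15, 2.37 and 6.79 CPM after it (log2 fold change -5.45, SE 1.45, adjusted p = 0.031, and 0.056 to 0.1 without mouse 1, 2 or 3 after DSS or mouse 4 without DSS, 0.061 without the filter on low counts). *Cracr2a*, a calcium-dependent Rab GTPase, was steadier, at 229, 347, 362 and 273 CPM and 70.5, 65.8 and 69.5 CPM (log2 fold change -2.14, SE 0.17, adjusted p = 2.4e-05). *A4gnt*, which adds a terminal sugar to gland mucins, was at 102, 82.3, 112 and 67.3 CPM and 24.3, 21.9 and 21.3 CPM (log2 fold change -2.02, SE 0.18, adjusted p = 6.4e-05). *Fcamr*, a receptor for IgA and IgM, was at 22.5, 21.7, 21.9 and 21.2 CPM and 5.52, 5.09 and 4.21 CPM (log2 fold change -2.14, SE 0.14, adjusted p = 6.1e-06). In *Cracr2a*, *A4gnt* and *Fcamr* each group was tight and the groups did not overlap.

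Mice that lack MiR-29ab1 had been studied in the same tables, 4 without and 3 after DSS, and allowed a test of whether the DSS effect differed by genotype. In a model over all 14 mice, 0 of 12529 genes were called for that difference (0%) in edgeR, with a smallest adjusted p of 0.977. At an unadjusted p under 0.05 were 502 (4.01%), and DESeq2 called 0 and had 590 at an unadjusted p under 0.05. The smallest p belonged to *Akr1b8*, an aldo-keto reductase that the study names, which rose in WT mice (log2 fold change 0.97, SE 0.12, adjusted p = 0.00054; log2 difference 0.99, SE 0.21, unadjusted p = 0.0003). The next were *Rab3c* (log2 difference 2.67, SE 0.63, unadjusted p = 0.00075), *2610528A11Rik* (log2 difference 0.68, SE 0.16, unadjusted p = 0.0008), *Ptpn14* (log2 difference -1.38, SE 0.34, unadjusted p = 0.0011), *Tppp3* (log2 difference -1.16, SE 0.31, unadjusted p = 0.0024), *Dexi* (log2 difference -0.62, SE 0.17, unadjusted p = 0.0025), *Adamts9* (log2 difference -2.99, SE 0.82, unadjusted p = 0.0025) and *Lrrc1* (log2 difference 0.44, SE 0.12, unadjusted p = 0.0026), where a difference above 0 means a higher log2 fold change in the mutant. Of the 4316 genes called in WT mice, 4295 (99.5%) had the same sign in the mutant mice, which share the 2 tables and with them the confounding of DSS and table.

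For the genes described above, the mutant log2 fold changes were nearer to the WT values in some than in others. *Fos* was at 4.45 in WT and 4.57 in mutant mice, *Lgr5* at -2.64 and -3.52, *Clu* at 2.18 and 1.93, and *Muc3* at 1.74 and 1.44. Gaps were wider for *Reg3b* at 3.98 and 7.87, *Reg3g* at 3.29 and 6.29, *Reg4* at -2.62 and -4.40 and *Gbp2* at 3.05 and 1.77. Of the interferon response list, 0 of 29 members were called in the mutant in edgeR and 2 had an unadjusted p under 0.05, with a median of 0.25. The immediate early list was called higher in 15 and lower in 2 of its 21 tested members in the mutant. The crypt stem and Wnt list was called higher in 3 and lower in 16 of 20. Their mutant medians were 2.35 and -1.48, against -0.02 over all genes tested in the mutant. The share of all tested genes called in the mutant is not given here, so these counts have no share beside them. No gene of these lists passed the test of the difference between genotypes.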

How the data were processed

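Total RNA was extracted with TRIzol and libraries were made with the NEBNext Ultra Directional kit. The authors deposited raw read counts per gene in 1 table for the mice without DSS and 1 for those after DSS. The submitters' processing notes name HISAT2 and DESeq2 without versions, and the counter, strand setting and build are not given in the sources used here. Positions of all 20589 genes equal GENCODE vM21 (GRCm38). The 14 FPKM columns and the authors' comparison columns (fold changes, p and adjusted p) were not used. The study left 1 WT and 1 mutant sample out of its own analysis without naming them, and the 14 samples given were all used here. Its sequencing figures state 4 mice per genotype without DSS and 3 after DSS, the numbers used here. Whether the samples left out are among the 14 is therefore not known. Columns after DSS carry a number but no title, so mice are named by column.

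Tables were joined on gene ID. Genes were filtered with filterByExpr (minimum count 10, total 15), scaled by TMM and tested in edgeR 4.0.16 (robust quasi-likelihood test, R 4.3.3, Benjamini-Hochberg adjusted p under 0.05), with DESeq2 1.42.0 as alternative. Each mouse is 1 sample, and p-values measure the spread between mice within a table. CPM of single mice follow TMM. With 3 reads as floor, the lowest detectable level was 0.142 to 0.191 CPM before TMM scaling, for counting error only. The scripts were tested on simulated data. Named genes were, per list, up to 8 with the smallest p and up to 4 not called; the 12 largest rises and falls with no overlap of the groups and a mean of at least 10 CPM; all genes the study names; and the 8 smallest interaction p. Some genes that this rule names are not reported here. A gene outside this rule is said to be named after its values were seen. The genes and lists were chosen with earlier results of these data known, and the list scores have no test. Alternatives were other scalings, filters, gene sets, length or GC offsets, and leaving out each mouse.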

Additional observations from a re-analysis of the deposited data

Results flagged for a closer look

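In 17 of 233 named genes with at least 20 reads in the group, 1 of the 4 mice without DSS stood far from the other 3: its gap to the nearest mouse, as a share of the group's range, was above Dixon's limit for 4 samples. The share is given first for each gene. It is relative to the range and can be high where CPM differ little, as in *Lrrc1* and *Smtn*. Far above and far below are used in this sense only. Chance flags about 1 in 20 such groups. Groups of 3 were not looked at in this way.

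Mouse 1 without DSS was far above the others in *Fos* (0.859; 68.4, 53.5, 55.6 and 55.4 CPM), *Ier5* (0.92; 49.3, 36.6, 36.6 and 35.5 CPM), *Nfkbia* (0.854; 71.7, 58.2, 56.3 and 55.9 CPM), *Ccl20* (0.888; 14.3, 2.12, 1.78 and 0.588 CPM), *Mcpt2* (0.832; 5.09, 1.81, 1.15 and 1.35 CPM) and *H1f2* (0.847; 179, 107, 111 and 118 CPM). Mouse 2 was far above in *Cdc20* (0.864; 45.6, 54.4, 46.8 and 46.3 CPM), *Pax5* (0.859; 0.906, 1.43, 0.861 and 0.941 CPM), *Hoxd10* (0.85; 1.3, 1.81, 1.21 and 1.29 CPM) and *Smtn* (0.958; 20.3, 22.7, 20.4 and 20.3 CPM), and far below in *Ereg* (0.884; 1.36, 0.374, 1.49 and 1.41 CPM). Mouse 3 was far above in *Fosb* (0.92; 1.47, 1.56, 3.96 and 1.35 CPM), *Nr4a1* (0.876; 16.4, 14.1, 36.9 and 13.5 CPM) and *Cenpf* (0.919; 39.7, 40.5, 49.6 and 40.2 CPM), and far below in *Fosl2* (0.925; 177, 178, 138 and 175 CPM). Mouse 4 was far above in *Lrrc1* (0.879; 54.3, 54.7, 54.4 and 57.6 CPM) and far below in *Mki67* (0.95; 219, 222, 220.3 and 162 CPM). For *Fos* and *Fosb*, every mouse after DSS lay above the mouse that stood apart.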

How the results depend on the processing

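The counts of genes kept within 1.5 times of 2208 higher and 2108 lower under RLE and upper quartile scaling, DESeq2, no filter, a filter of 10 reads in every mouse, all genes of both tables, all 14 mice in one model, length offsets and, added after seeing the data, GC offsets and the removal of marked or overlapping genes. Size factors from reference genes gave 954 higher and 3651 lower, and 310 and 1159 at least 2-fold, and with all genes of both tables at least 2-fold higher were 761 and lower 1349. With 1 mouse left out, 1464 to 2182 genes were higher and 1390 to 2034 lower, the lowest without mouse 3 after DSS, and 384 to 543 and 448 to 642 were at least 2-fold higher and lower. Genes whose DSS effect differed between genotypes numbered 0 to 1, with 1 called without mouse 3 of the mutant after DSS. Of 186 named genes that were called, 135 were called under each of the 19 settings that tested them. Only *Ikbkb* changed sign, with a log2 fold change of 0.03 with length offsets, and the cause was not tested. Up to 29 calls of named genes were lost with a mouse left out, the most without mouse 2 after DSS, and 19 with length offsets, *Ikbkb* included. No paired analysis was possible because the title numbers of WT mice with and without DSS do not recur and the columns after DSS are not tied to titles. Low counts limit cytokine, neutrophil and stroma genes, where few members could be tested.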

Other observations

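Lists that the report does not describe were counted in the same way. Of 13 tested genes that mark colon, 6 rose and 0 fell, or 5 with length offsets, among them *Slc37a2* (log2 fold change 1.29, SE 0.24, adjusted p = 0.0051), *Aqp8*, a water channel of the surface (log2 fold change 1.35, SE 0.35, adjusted p = 0.022, and 0.055 to 0.068 without mouse 1, 3 or 4 without DSS), and the patterning gene *Hoxd10* (log2 fold change 1.03, SE 0.30, adjusted p = 0.025, and 0.064 to 0.086 without mouse 1 or 2 after DSS or mouse 3 without DSS, 0.079 with length offsets, 0.073 with size factors from reference genes, 0.055 with all 14 mice in one model). Of 12 tested genes that mark the small intestine, 4 rose and 0 fell, or 2 when mouse 2 or 3 without DSS or mouse 3 after DSS was left out and 1 with length offsets, and *Apob* (log2 fold change 0.94, SE 0.20, adjusted p = 0.0079, and 0.076 with size factors from reference genes) and *Rbp2*, a retinol-binding protein (log2 fold change 0.92, SE 0.20, adjusted p = 0.0073, and 0.097 with length offsets, 0.066 with size factors from reference genes), had the smallest p. Of 10 tested replication-dependent histone genes, 5 rose and 0 fell, 3 rose and 1 fell with length offsets, and 2 rose without mouse 3 without DSS or mouse 1 or 3 after DSS. These genes have near-identical copies, and *H1f2* (log2 fold change 1.37, SE 0.17, adjusted p = 0.0006) held most of the reads. Of 13 mitochondrially encoded genes 0 were called in edgeR or DESeq2 and 0 had an unadjusted p under 0.05 in either, while edgeR with length offsets called 2 lower, and all of them overlapped between the groups. Of 3 tested smooth muscle genes, *Mylk* rose (log2 fold change 0.49, SE 0.12, adjusted p = 0.013, and 0.064 without mouse 2 after DSS, 0.19 with size factors from reference genes) and *Smtn* fell (log2 fold change -0.43, SE 0.14, adjusted p = 0.037, and 0.052 to 0.11 without mouse 1 or 2 after DSS or mouse 1, 2, 3 or 4 without DSS, 0.05 with length offsets, 0.055 with GC offsets). Of 3 tested genes of enteric neurons and glia 0 were called in edgeR and 0 had an unadjusted p under 0.05, while DESeq2, which tested 10, called 2 lower that had few reads, *Elavl4* and *Gfap*, and *Vip*, *Nos1*, *Sox10* and *Cdh19* had 0 reads in every mouse.

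Some circadian clock genes varied widely among mice of the same group. *Dbp*, an output gene of the clock, was at 3.68, 17.4, 3.33 and 47 CPM without DSS and 25.5, 0.823 and 2.93 CPM after it, and *Ciart*, a clock repressor, at 1.02, 4.67, 1.72 and 10.2 CPM and 2.89, 0.514 and 0.292 CPM. In both, mice 2 and 4 without DSS and mouse 1 after DSS were high. Of 17 tested clock genes, 1 was called higher and 1 lower, and 0 with length offsets. The hour at which tissue was taken is not given in the sources used here, and its part in other genes was not tested.

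Genes that the study names were chosen in part on these samples and are not independent evidence. Of 23 that were tested, 9 rose and 4 fell, or 9 and 3 with length offsets. Those not named above were *Sult1d1*, a sulfotransferase (log2 fold change 0.67, SE 0.13, adjusted p = 0.0049, and 0.075 with size factors from reference genes), and *Meis3* (log2 fold change 0.51, SE 0.17, adjusted p = 0.04, and 0.063 to 0.13 without mouse 1, 2 or 3 after DSS or mouse 1 or 2 without DSS, 0.088 with length offsets, 0.42 with size factors from reference genes, 0.094 with upper quartile scaling), which rose, and *P2rx7*, a receptor for extracellular ATP (log2 fold change -0.85, SE 0.18, adjusted p = 0.0061), and *Ugt8a* (log2 fold change -1.14, SE 0.39, adjusted p = 0.044, and 0.056 to 0.095 without mouse 1 or 3 after DSS or mouse 1, 3 or 4 without DSS, 0.055 with length offsets, 0.11 with all 14 mice in one model), which fell, beside the endocrine granule gene *Chgb* (log2 fold change -0.42, SE 0.15, adjusted p = 0.049, and 0.068 to 0.15 without mouse 1, 2 or 3 after DSS or mouse 1, 3 or 4 without DSS, 0.056 with all 14 mice in one model, 0.052 with RLE size factors, 0.062 with all genes of both tables, 0.051 without marked genes). *Pcna* (0.05, adjusted p = 0.76), *Mov10* (0.22, adjusted p = 0.47), *Chga* (-0.15, adjusted p = 0.44) and *Tgfb1* (0.03, adjusted p = 0.93) were not called. *Cldn1* (7 and 5 reads) and *Cxcl3* (0 and 4 reads) failed the filter on low counts, and without it edgeR gave an adjusted p of 0.93 and 0.14.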
